A study of Mus musculus with 14 samples.

Results

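The neural progenitor and neuronal subunits of the BAF complex were described in the brains of newborn mice, WT or Capn15 KO, at postnatal day 2 (P2). The genes were chosen by symbol from a list of 10: Smarca4, Smarca2, Actl6a, Actl6b, Phf10, Dpf1, Dpf2, Dpf3, Ss18 and Ss18l1. All 10 were among the 17927 genes with deposited counts, and none was lost to a filter on low counts. The brains came from 7 WT and 7 Capn15 KO pups of 6 litters, lettered A to F, and RNA depleted of ribosomal RNA was sequenced from each whole brain. The lines were made on C57BL/6J, no treatment was given, and the labels do not name the KO allele. Capn15 is a calpain protease of the SOL family, and the comparison asks which mRNAs depend on it in the newborn brain.

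The BAF (mammalian SWI/SNF) complex uses ATP to move nucleosomes and so opens chromatin for transcription. When a neural progenitor leaves the cell cycle, several subunits are exchanged for paralogs. Actl6a (BAF53a), Phf10 (BAF45a), Dpf2 (BAF45d) and Ss18 belong to the progenitor form, and Actl6b (BAF53b), Dpf1 (BAF45b), Dpf3 (BAF45c) and Ss18l1 (CREST) to the neuronal form. The ATPases Smarca4 (Brg1) and Smarca2 (Brm) serve in both forms. The microRNAs miR-9-3p and miR-124 are known to repress Actl6a in neurons, and the repressor REST is known to hold neuronal genes and these microRNAs down in progenitors.

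The libraries held between 37620954 and 70910163 counts on genes, and the members between 661 and 25747 counts in a library, far above the floor of 3 counts. The column names gave 2 females and 5 males among the WT brains and 4 females and 3 males among the Capn15 KO brains. WT and Capn15 KO brains with the same replicate number shared a litter. The brains of replicates 2 and 3 all came from litter B, where the number alone set the pairs. In every pair but that of replicate 7, a male was set against a female. Counts over pairs and differences within pairs therefore mix sex with genotype. Levels are given as CPM, the counts of a gene relative to the size of its library, scaled with TMM factors. Capn15 itself lay between 18.7 and 27.3 CPM in the WT and between 12.2 and 20.2 CPM in the Capn15 KO brains, with less of it in the Capn15 KO brain of 6 of 7 pairs. In replicate 7, the pair of litter F, the library labelled Capn15 KO held more Capn15 than the library labelled WT, so the main counts are also given without that pair. The labels name the cells neurons, but the tissue was whole brain. The 10 neuron markers summed to between 8037 and 8452 CPM, and markers of astrocytes, microglia, endothelium, leptomeninges and red blood cells were also read in every brain.

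At P2 the neuronal paralog was the more abundant mRNA in the BAF53 and SS18 families, under each of the 4 gene lengths tried. Because long genes collect more reads, levels of different genes were compared as CPM per kilobase of annotated exon. In that unit the order over all 14 brains ran from Smarca4 (54.5 ± 2.48, SD) through Ss18l1 (33.1 ± 3.03), Actl6b (20.7 ± 1.22), Dpf1 (18.5 ± 1.20), Smarca2 (14.1 ± 0.555), Phf10 (13.5 ± 0.893), Actl6a (6.18 ± 0.545), Dpf2 (5.11 ± 0.219) and Dpf3 (4.65 ± 0.451) to Ss18 (4.16 ± 0.225). The ranges of Actl6b and Dpf1 overlapped, although Actl6b was the higher in each of 14 brains. Smarca2 and Phf10, Dpf2 and Dpf3, and Dpf3 and Ss18 were neighbours whose order changed from brain to brain, with the first of each pair ahead in 10 of 14. These levels rest on the length given to a gene. The union of exons of Smarca2 spans 14269 bp over 46 annotated transcripts, while its longest coding transcript has 5921 bp.

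**Figure D1:**
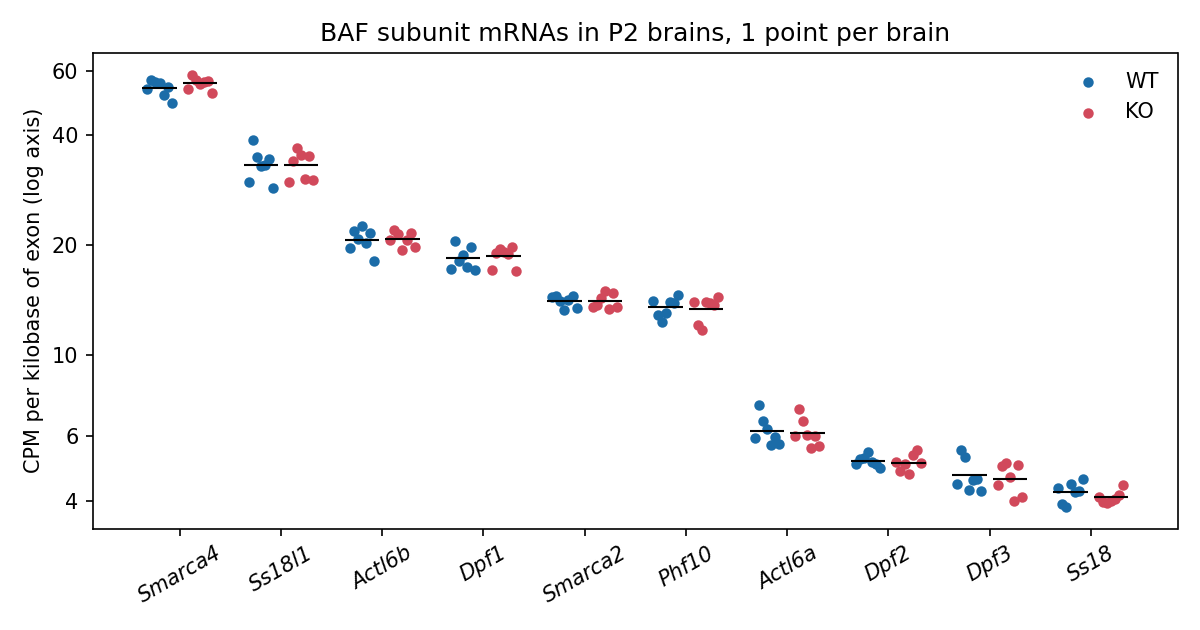
CPM per kilobase of exon (log axis) of the 10 BAF subunit mRNAs, with 1 point per brain (blue WT, red Capn15 KO) and a black line at each mean. Smarca4 and Ss18l1 stand highest and Ss18 lowest, and within each gene the WT and Capn15 KO points overlap.

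Actl6b predominated among the BAF53 mRNAs. Actl6a and Actl6b encode actin-related proteins, and Actl6b is found in neurons after mitosis. Actl6a lies on GRCm38 chr3:32706298-32726973 on the plus strand with 14 exons in its longest coding transcript, and Actl6b on chr5:137553517-137569582 on the plus strand, also with 14. Actl6a ranged from 22.0 to 28.4 CPM in the WT brains, with a median of 23.2, and from 21.6 to 27.7 CPM in the Capn15 KO brains, with a median of 23.4. Actl6b ranged from 77.1 to 96.2 CPM with a median of 88.6 in the WT brains and from 83.0 to 94.0 CPM with a median of 88.2 in the Capn15 KO brains. The WT and Capn15 KO ranges overlapped for both genes. Actl6a made up 23.1% ± 1.37 (SD, n = 7) of the BAF53 mRNA per kilobase in the WT and 22.8% ± 1.17 (SD, n = 7) in the Capn15 KO brains. The ratio of Actl6a to Actl6b per kilobase stayed below 1 in every brain, at 0.276 to 0.335 in the WT and 0.269 to 0.324 in the Capn15 KO brains. With the longest coding transcript as the length the mean over all brains was 0.215 instead of 0.298. The gene body of Actl6a overlaps that of Mrpl47 on the other strand. The strand setting of the counting is not given in the sources used here. Reads of Mrpl47 in the shared part therefore cannot be told apart from reads of Actl6a. The same limit holds for Phf10, Smarca2, Dpf1 and Dpf2, whose gene bodies also overlap annotated genes on the other strand.

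The sequences by which the exchange of BAF53 is known to be read were looked up, because they tell the paralogs apart. The mature miR-9-3p of the mouse, from RefSeq, is shown first with its seed (bases 2 to 8) in capitals. The 3′ UTR of the longest coding transcript of Actl6a (371 bases) and that of Smarca2 (951 bases) each hold 1 stretch that pairs with this seed, in capitals below. The other 8 members held none, and 11.1% of 20966 genes with an annotated 3′ UTR held at least 1.
mmu-miR-9-3p: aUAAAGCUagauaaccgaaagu
Actl6a 3′ UTR: tcaacgtctgtAGCTTTAgtacactcagg
Smarca2 3′ UTR: catctagaactAGCTTTAgggtagtgcca
The match in Actl6a lies at chr3:32726640-32726646 of GRCm38 and that in Smarca2 at chr19:26777502-26777508, each on the plus strand. Actl6b held no match in its 196 bases of 3′ UTR. A match of letters is a description and no measure of repression.

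Promoters from RefSeq (250 bases before to 50 after the annotated start, GRCm38.p6) were searched on both strands for the arms of the RE1 motif that REST binds. The left arm was TCAGCACC. The right arm was GGACAGC, shortened from 8 letters to 7 after the Actl6b promoter had been read, so its match there was chosen after the fact. Of the 9 members searched (all but Ss18), Actl6b held each arm once, on the minus strand, and the others held neither. The stretch shown has the arms in capitals as they read on the plus strand, with 9 bases between them.
Actl6b, chr5:137553567-137553590: GCTGTCCggccgcctcGGTGCTGA
Its bases lie 21 to 44 bases past the annotated start. Of 32851 promoters, 1.65% held the left arm, 6.56% the right arm and 0.131% both. The search set no order, shared strand or spacing for the arms.

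Ss18l1 predominated among the SS18 mRNAs. Ss18 and Ss18l1 are transcriptional coactivators within the complex, and Ss18l1 (CREST) takes part in calcium-dependent transcription and dendrite growth. Ss18l1 (chr2:180042509-180070201, plus strand) ranged from 124.5 to 168 CPM with a median of 144 in the WT brains and from 129.5 to 160.1 CPM with a median of 148 in the Capn15 KO brains. Ss18 (chr18:14624198-14682914, minus strand) ranged from 36.3 to 43.3 CPM with a median of 40.1 in the WT and from 37.2 to 41.6 CPM with a median of 38.01 in the Capn15 KO brains. Ss18 had the narrower spread of the pair, and no brain held as much Ss18 as Ss18l1. Per kilobase, Ss18 was 11.4% ± 1.58 (SD, n = 7) of the family in the WT and 11.1% ± 1.14 (SD, n = 7) in the Capn15 KO brains, and the ratio of Ss18 to Ss18l1 ran from 0.101 to 0.160 and from 0.107 to 0.147. The mean ratio of 0.127 became 0.288 with the longest coding transcript, still below 1.

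The BAF45 family, whose PHD fingers read histone tails, was mixed. Dpf1 (chr7:29303951-29318243, plus strand) supplied 44.0% ± 1.87 (SD, n = 7) of the family per kilobase in the WT and 44.7% ± 1.998 (SD, n = 7) in the Capn15 KO brains. Phf10 (chr17:14945009-14961273, minus strand) supplied 32.4% ± 2.38 (SD, n = 7) and 32.1% ± 2.58 (SD, n = 7). Dpf2 (chr19:5896516-5913010, minus strand) stood at 12.3% and 12.2%, and Dpf3 (chr12:83213745-83487716, minus strand) at 11.2% and 11.01%. With the union of exons, a progenitor member, Phf10, was thus second to Dpf1, and the ranges of Dpf2 and Dpf3 overlapped.

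The ratio of Phf10 to Dpf1 had a mean of 0.740 ± 0.0835 (SD, n = 7) in the WT and 0.723 ± 0.0896 (SD, n = 7) in the Capn15 KO brains, below 1 in every brain. That order depends on the length used, since the mean over all brains was 0.731 with the union of exons, 0.928 with the longest coding transcript and 1.76 with the median transcript. Phf10 exceeded Dpf3 in every brain, by 2.32 to 3.52 times with the union of exons, and its mean of 2.94 became 6.44 with the longest coding and 7.41 with the median transcript. Dpf2 was below Dpf1 in every brain, at 0.247 to 0.298 of its level. With the union of exons Dpf2 and Dpf3 were close, with ratios from 0.946 to 1.34. Each of the other lengths tried gave a higher mean ratio of Dpf2 to Dpf3.

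In CPM, Phf10 ran from 60.8 to 71.7 (median 68.5) in the WT and from 57.7 to 71.0 (median 68.3) in the Capn15 KO brains. Dpf1 ran from 91.7 to 110.6 (median 97.2) and from 91.4 to 106.5 (median 102.6). Dpf2 ran from 32.0 to 35.4 (median 33.2) and from 30.8 to 35.9 (median 32.9). Each WT range overlapped the Capn15 KO range. Dpf3 had the fewest counts of the members, although Ss18 was lower per kilobase, and lay at 17.98 to 23.3 CPM (median 19.3) in the WT and 16.9 to 21.4 CPM (median 19.6) in the Capn15 KO brains.

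Of the ATPases, Smarca4 (chr9:21616169-21704230, plus strand) ran from 317 to 365 CPM with a median of 351 in the WT and from 338 to 379 CPM with a median of 361.5 in the Capn15 KO brains. Smarca2 (chr19:26605050-26778322, plus strand) ran from 189 to 207 CPM with a median of 202 in the WT and from 191 to 213 CPM with a median of 196 in the Capn15 KO brains. Smarca4 carried 79.2% ± 0.872 (SD, n = 7) of the ATPase mRNA per kilobase in the WT and 79.8% ± 0.824 (SD, n = 7) in the Capn15 KO brains. The mean ratio of Smarca4 to Smarca2 was 3.89 with the union of exons and 1.64 with the longest coding transcript, and it turned to 0.261 with the median transcript length, which for Smarca2 is 872 bp over 46 annotated transcripts.

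Summed over the 3 exchanged families, progenitor subunits stood at 0.381 ± 0.0346 (SD, n = 7) of neuronal subunits per kilobase in the WT brains, with values from 0.339 to 0.438. In the Capn15 KO brains the sum stood at 0.374 ± 0.0313 (SD, n = 7), with values from 0.330 to 0.417. The mean over all brains rose from 0.377 to 0.490 with the longest transcript, 0.518 with the longest coding transcript and 0.705 with the median transcript as the length. In whole brain, fewer cells of a type and less RNA per cell cannot be told apart, so these ratios describe the tissue and not a cell. Stretches shared letter for letter by the transcripts of a pair were at most 24 bases long (Ss18 and Ss18l1), shorter than a typical sequenced read.

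**Figure D2:**
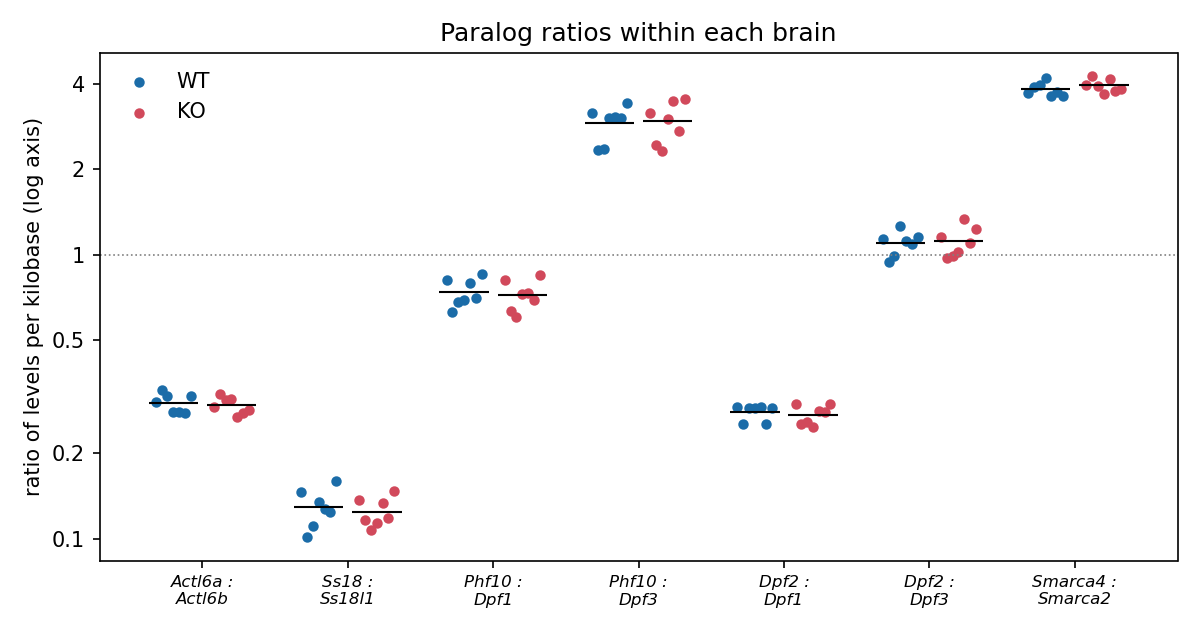
Ratio of the levels per kilobase of each paralog pair (log axis), with 1 point per brain (blue WT, red Capn15 KO), a black line at each mean and a dotted line at 1. Actl6a to Actl6b, Ss18 to Ss18l1, Phf10 to Dpf1 and Dpf2 to Dpf1 lie below 1 in all 14 brains, and WT and Capn15 KO points overlap in every pair.

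No subunit of the list passed the test between Capn15 KO and WT brains. With edgeR's quasi-likelihood test, litter and sex in the model and a false discovery rate (FDR) under 0.05 over all genes, 0 of 10 members were called, beside 0.00558% of all 17927 genes, which is 1 gene. Capn15 itself, at a log2 fold change of -0.81 ± 0.118 (SE), had an FDR of 0.0747 in this edgeR test and was not called either. At an unadjusted p under 0.05, 1 of 10 members and 922 genes (5.14%) passed. DESeq2 and edgeR's likelihood ratio test also called 0 of 10, beside 22 and 34 of all genes. Without the pair of replicate 7 the count was again 0, beside 7 of all genes. The changes were small: the median over the members was -0.0045 on the log2 scale, beside 0.0015 over all genes. In the Capn15 KO brains 7 members were lower and 3 higher, beside 8713 and 9214 of all genes.

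The 95% intervals of the members give the changes that this fit allowed, with every label taken as given, also in replicate 7. They lay between a fold of 0.912, the lower bound for Dpf3, and a fold of 1.07, the upper bound for Smarca4. In the same fit the interval of Capn15 was a fold of 0.480 to 0.682. These bounds do not cover a wrong label. Among progenitor subunits, Actl6a changed by -0.02 ± 0.0365 (log2 fold change, SE), Phf10 by -0.0032 ± 0.0274 and Dpf2 by -0.02 ± 0.0401. Ss18 had the smallest p of the members, with a log2 fold change of -0.06 ± 0.0290 (SE), an unadjusted p of 0.0493 and an FDR of 0.969 by edgeR's quasi-likelihood test, and the Capn15 KO brain held less of it in 5 of 7 pairs. Among neuronal subunits, Actl6b changed by -0.0037 ± 0.0354, Dpf1 by 0.03 ± 0.0316, Dpf3 by -0.03 ± 0.0457 and Ss18l1 by -0.0052 ± 0.0370. Smarca4 was at 0.05 ± 0.0245, with an FDR of 0.972 by the same edgeR test and higher values in 6 of 7 pairs, and Smarca2 at 0.01 ± 0.0317.

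**Figure D3:**
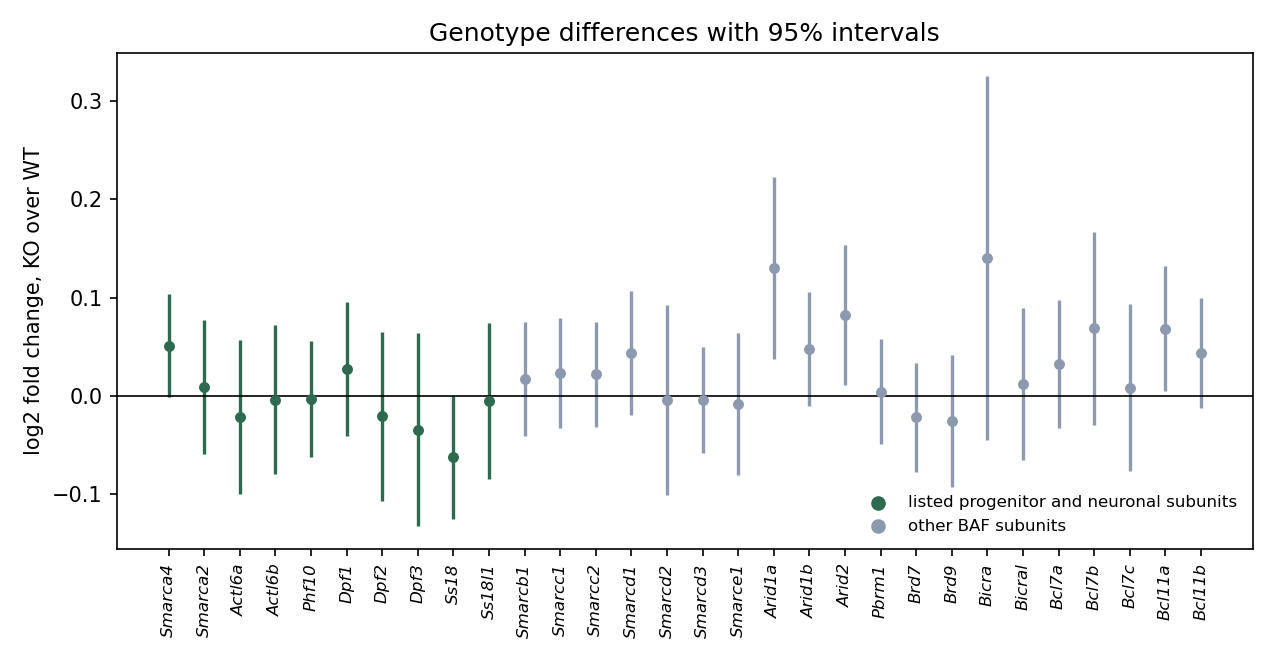
Log2 fold change of Capn15 KO over WT with its 95% interval from edgeR's quasi-likelihood fit, for the 10 members (green) and 20 other BAF subunits (grey). The 10 member estimates lie between -0.06 and 0.05, and none passed an FDR of 0.05.

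The ratios of counts within a brain need no scaling for depth, and a difference of their logs between genotypes needs none for length. None of the 7 ratios passed its test. The log2 ratio of Actl6a to Actl6b counts had a mean of -1.87 ± 0.111 (SD, n = 7) in the WT and -1.90 ± 0.0959 (SD, n = 7) in the Capn15 KO brains, a difference of -0.03 (two-sided exact permutation test, p = 0.611). The difference for Ss18 to Ss18l1 was -0.04 (exact permutation p = 0.690), for Phf10 to Dpf1 -0.04 (exact permutation p = 0.706) and for Dpf2 to Dpf1 -0.03 (exact permutation p = 0.554). It was 0.01 for Phf10 to Dpf3 (exact permutation p = 0.887), 0.02 for Dpf2 to Dpf3 (exact permutation p = 0.824) and 0.05 for Smarca4 to Smarca2 (exact permutation p = 0.245). Adjusted over the 7 ratios, each p was 0.887. The 3432 regroupings of 7 against 7 brains allow a p as small as 0.000583. Within the 7 pairs, the difference for Actl6a to Actl6b ran from -0.15 to 0.16 and was below 0 in 5.

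More members passed the test between litters than between genotypes. The F test of litter in the same fit called 7 of 10 members, beside 29.6% of all genes and 40.9% of the 8563 genes at or above the level of the lowest member. The called members were Ss18l1 (FDR 0.0061, edgeR's quasi-likelihood test), Actl6a (0.0062), Phf10 (0.0071), Dpf3 (0.0199), Dpf1 (0.0205), Ss18 (0.0399) and Smarca4 (0.0485). Dpf2 (0.911), Smarca2 (0.498) and Actl6b (0.233) did not pass. Without litter F, 4 of 10 were called (Actl6a, Phf10, Dpf3 and Ss18l1) beside 27.5% of all genes. The likelihood ratio test lost Smarca4 alone and called 6 of 10, beside 37.4% of all genes.

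In litter B the 4 neuronal subunits had higher means than in the other 10 brains, and 3 of the 4 progenitor subunits had lower means, with Actl6a as the exception. In the 4 brains of litter B, Actl6a lay between 25.6 and 28.4 CPM, above the 21.6 to 24.4 CPM of the other 10 brains. Phf10 lay between 57.7 and 63.4 CPM in litter B, below the 64.2 to 71.7 CPM of the others. These ranges did not overlap for either progenitor subunit, but the direction was opposite. Ss18 was at 36.3 to 37.5 CPM in litter B, also below the 37.6 to 43.3 CPM of the others. Dpf2, which the litter test did not call, was at 31.5 to 33.9 CPM beside 30.8 to 35.9 CPM. Among neuronal subunits, Dpf3 was at 21.003 to 23.3 CPM in litter B beside 16.9 to 21.1 CPM elsewhere, and Ss18l1 at 148 to 168 CPM beside 124.5 to 153 CPM. Actl6b (mean 91.8 beside 87.1 CPM) and Dpf1 (mean 103.8 beside 98.1 CPM) overlapped the other brains. Smarca4 was at 362 to 379 CPM in litter B beside 317 to 363 CPM elsewhere. Litter F lay at the opposite end for several members. Its 2 brains held 71.0 and 71.7 CPM of Phf10 and 41.6 and 43.3 CPM of Ss18. They held 91.4 and 91.7 CPM of Dpf1, below every other brain, for which the lowest was 92.2 CPM.

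**Figure D4:**
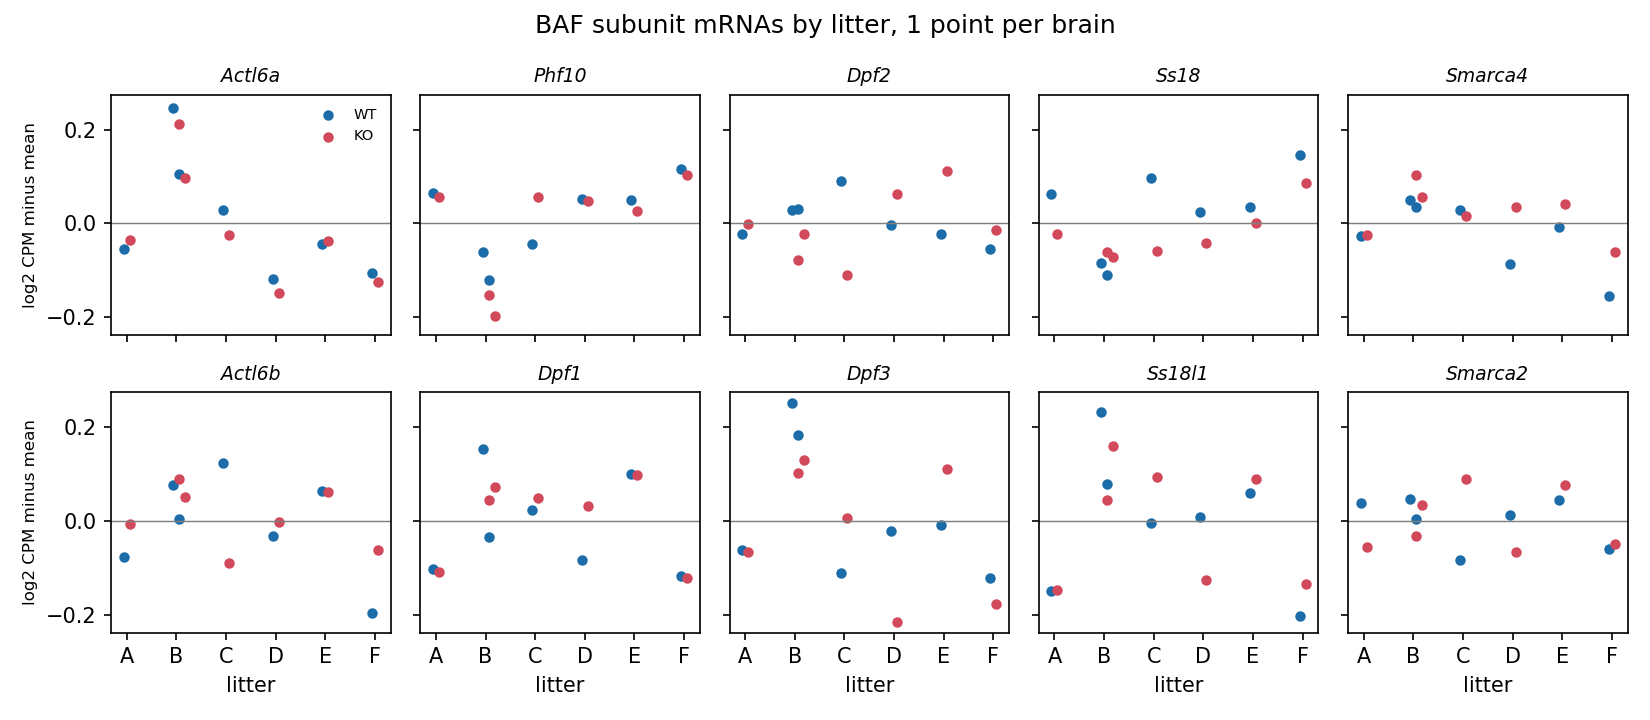
Log2 CPM of each member minus its mean over the 14 brains, by litter (A to F), with 1 point per brain (blue WT, red Capn15 KO); progenitor subunits and Smarca4 are in the upper row, neuronal subunits and Smarca2 in the lower. Litter B is high for Actl6a, Dpf3 and Ss18l1 and low for Phf10 and Ss18, and for Actl6a the WT and Capn15 KO brains of litter B are all above the other 10.

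The paralog ratios also varied by litter, which is given as a description. The summed ratio of progenitor to neuronal subunits per kilobase was 0.330 to 0.355 in litter B and 0.361 to 0.438 in the other 10 brains. These ranges stayed apart with the median and the longest coding transcript as lengths and overlapped with the longest transcript. Phf10 to Dpf3 per kilobase was 2.32 to 2.43 in litter B and 2.74 to 3.52 in the other 10 brains. Phf10 to Dpf1 was 0.603 to 0.684 in litter B and 0.691 to 0.855 elsewhere. Dpf2 to Dpf3 was 0.946 to 0.994 in litter B and 1.02 to 1.34 elsewhere. In these pairs litter B had the lower ratio of progenitor to neuronal subunit and did not overlap the other brains. Actl6a to Actl6b went the other way, with 0.307 to 0.335 in litter B and 0.269 to 0.317 elsewhere, and these ranges overlapped. Ss18 to Ss18l1 was 0.101 to 0.117 in litter B, 0.147 and 0.160 in litter F, and 0.113 to 0.146 in the rest.

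Ribosomal protein genes and neuron markers also set litter B apart, while mitochondrial genes and markers of dividing progenitors overlapped the other litters. Ribosomal protein genes took 2.23% to 2.34% of the counts in litter B and 1.93% to 2.16% in the other brains, while mitochondrial genes took 2.10% to 2.39% and 1.96% to 2.43%. The mean log2 CPM of the 10 neuron markers was 8.88 to 8.90 in litter B and 8.94 to 9.03 elsewhere. The mean of the 8 markers of dividing progenitors, such as Mki67 and Top2a, was 4.46 to 4.66 in litter B and 4.49 to 5.02 elsewhere. The part of these differences in the values of the members was not tested.

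No member passed the test between males and females. The sex term of the same fit called 0 of 10 members, beside 0.0669% of all genes (12 genes). At an unadjusted p under 0.05, 0 of 10 passed, beside 5.04% of all genes. The likelihood ratio test also called 0 of 10, beside 0.201% of all genes (36 genes). Actl6b had the largest difference, of -0.05 ± 0.0381 (log2, male minus female, SE), with an FDR of 0.933 by edgeR's quasi-likelihood test.

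The ratio of Actl6a to Actl6b was set against markers that are not members. Over the 14 brains its log2 value fell with the mean level of the neuron markers (Pearson's r = -0.70, permutation p = 0.0076, Spearman's rho = -0.64, permutation p = 0.0157, adjusted over 2 relations to 0.0151 and 0.0315). Without the 2 brains farthest from the median marker level r was -0.62. This relation rested on litter B, since r was -0.24 (permutation p = 0.521) in the 10 brains of the other litters. For deviations from genotype and litter means r was -0.28 (permutation p = 0.337). With the markers of dividing progenitors r was -0.30 (permutation p = 0.289) and rho -0.32 (permutation p = 0.269). Without the 2 brains farthest from that median it was -0.41, and for deviations from genotype and litter means it was -0.59 (permutation p = 0.0268), where rho was -0.45 (permutation p = 0.106). Without litter B it turned to 0.21 (permutation p = 0.557). The deviations from genotype and litter means cancel out within a litter, so the 14 deviations are not independent. The permutations treated them as independent, so no conclusion is drawn from the p values given for deviations.

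**Figure D5:**
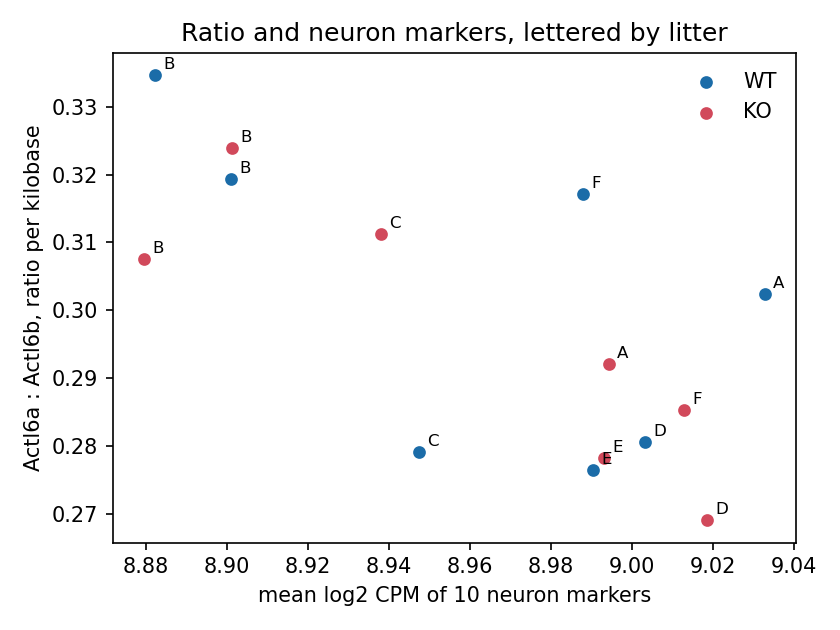
Ratio of Actl6a to Actl6b per kilobase against the mean log2 CPM of 10 neuron markers, with 1 point per brain (blue WT, red Capn15 KO) and its litter as a letter. The 4 brains of litter B, at 8.88 to 8.90, make up the upper left, and the other 10 brains show an r of -0.24.

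The genes whose levels followed Actl6a most closely, after the mean of each genotype was taken off, were Zfp788 (r = 0.97), Smg5 (0.97), Zfp397 (0.96), Zfp952 (0.96) and Rbmx (0.95), among 15226 genes with a mean of at least 1 CPM. For Actl6b they were Csk (r = 0.93), Dhx35 (0.91), Fblim1 (0.91), Bag6 (0.89) and Apbb3 (0.88). The lists had no gene in common, but lists this short from 15226 genes would seldom share any by chance. These correlations over 14 brains share the litters, in which Actl6a differed, and are given without a test.

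Of the 20 other BAF subunits, none was called between Capn15 KO and WT brains by edgeR's quasi-likelihood test, beside 0.00558% of all genes. With DESeq2 or the likelihood ratio test 0 of 20 passed, beside 22 and 34 of all genes. At an unadjusted p under 0.05, 3 of 20 passed, beside 5.14% of all genes. Arid1a, an ARID subunit of canonical BAF, was at 0.13 ± 0.0429 (log2 fold change, SE). Arid2, the ARID subunit of the related PBAF complex, was at 0.08 ± 0.0332, and the zinc finger protein Bcl11a at 0.07 ± 0.0298. The FDR of these 3 lay between 0.752 and 0.953. The log2 fold changes of 15 of 20 were above 0, with a median of 0.02 beside 0.0015 over all genes. Over all genes 9214 of 17927 were above 0, and 4647 of the 8563 at or above the level of the lowest member. The core subunits Smarcb1 (102 and 104 CPM in WT and Capn15 KO brains), Smarcc1 (130 and 131 CPM) and Smarce1 (144 and 143 CPM) differed little between the group means. Between litters 13 of 20 were called, beside 29.6% of all genes and 40.9% of genes at or above the level of the lowest member.

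Genes known to act on the exchange were also measured. The 11 were Rest, Rcor1, Rcor2, Ctdsp1, Ctdsp2, Ctdspl, Ptbp1, Ptbp2 and the host genes Mir124a-1hg, Mir124-2hg and Mir9-3hg. None was called between Capn15 KO and WT brains. At an unadjusted p under 0.05, 0 of 11 passed, beside 5.14% of all genes. DESeq2 and the likelihood ratio test called 0 of 11, beside 22 and 34 of all genes. Rest was at 22.4 ± 2.27 CPM (SD, n = 7) in the WT and 22.4 ± 3.17 CPM (SD, n = 7) in the Capn15 KO brains. The splicing factor Ptbp2, which takes over from Ptbp1 as neurons form, was at 291 ± 25.2 CPM (SD, n = 7) and 293 ± 28.3 CPM (SD, n = 7), and Ptbp1 at 55.6 ± 5.004 and 57.2 ± 3.56 CPM (SD, n = 7 each). Between litters 8 of 11 were called, beside the same 29.6% and 40.9%, with Mir9-3hg, a host gene of the microRNA shown above, at the lowest FDR (4.7e-05, edgeR's quasi-likelihood test).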

How the data were processed

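The authors depleted ribosomal RNA, trimmed the reads, aligned them to GRCm38 with STAR and deposited raw counts per gene for 14 brains, without normalization, after a filter on genes whose rule is not given in the sources used here. Names of the kit, the instrument and the counting tool differ between the labels and the study's methods, and the strand setting is not given. The labels put every brain in 1 batch, and litter and sex were read from the column names. Shared litters pair WT and Capn15 KO brains of the same number, whose deviations correlated at between -0.47 and 0.44. Counts were tested with edgeR 4.0.16 (quasi-likelihood test, TMM factors, genotype, litter and sex, all genes with at least 1 count, Benjamini-Hochberg over 17927 genes) in R 4.3.3, with DESeq2 1.42.0 as an alternative. The procedure was checked on simulated data. Log2 ratios of counts had 0.5 added to each gene and were compared with exact permutation tests in Python 3.11.15 with scipy 1.17.1, all two-sided. Exon lengths came from GENCODE M21, where 17909 genes were found by identifier. The lowest chi-square between libraries was 4.66 per gene, so none was a copy of another. Correlations used 100000 permutations. Members, marker lists and lists of other subunits were chosen with earlier results of these data known. Named genes are the members, Capn15, genes of the fixed lists and the 5 genes most like Actl6a and Actl6b. Of the 21 alternatives of the gene test, 14 left out 1 brain each.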

Additional observations from a re-analysis of the deposited data

How the results depend on the processing

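The count of members and the count of other complex genes called between genotypes were 0 under all 21 alternatives, 14 of which left out 1 brain each (from 0 to 0). Over all genes, these alternatives called between 0 and 34 genes. The lowest count of a member in a library was 661; the part of depth in these counts was not tested. Without the pair of replicate 7 the litter test called 4 members, beside 27.5% of all genes, with fewer brains and litters in the fit.

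The replicate block in place of litter gave log2 fold changes of 0.05 for Smarca4 and -0.06 for Ss18, with 0 members called. Sign-flip tests on the pairs gave p between 0.313 and 0.672 for the ratios, so the pairing changed no call. These sign-flip tests did not account for the difference in sex within most pairs. All other signs that turned belong to values that passed no test. With genotype alone, Smarca2 was at -0.000845 and Actl6b at 0.0097 (log2 fold change). Leaving out 1 brain gave log2 fold changes from -0.0389 to 0.0575 for Smarca2, -0.0375 to 0.0557 for Actl6b, -0.0239 to 0.0156 for Phf10, -0.0656 to 0.0348 for Dpf2, -0.0952 to 0.0235 for Dpf3, -0.0424 to 0.0458 for Ss18l1, -0.0321 to -0.0117 for Actl6a, 0.00752 to 0.041 for Dpf1, 0.0295 to 0.0811 for Smarca4 and -0.0789 to -0.0458 for Ss18. The log2 ratio differences then ran from -0.051 to -0.00249 for Actl6a to Actl6b, -0.0551 to -0.00809 for Dpf2 to Dpf1, -0.0271 to 0.0525 for Dpf2 to Dpf3, -0.0756 to 0.00686 for Phf10 to Dpf1, -0.0361 to 0.0701 for Phf10 to Dpf3, 0.03 to 0.071 for Smarca4 to Smarca2 and -0.0988 to 0.0121 for Ss18 to Ss18l1. In females and males alone (2 WT brains among the females) the differences were 0.10 and -0.10 for Actl6a to Actl6b, -0.21 and 0.24 for Phf10 to Dpf3, -0.18 and 0.16 for Dpf2 to Dpf3, -0.13 and 0.0447 for Ss18 to Ss18l1, -0.13 and 0.0721 for Phf10 to Dpf1, and -0.10 and 0.00081 for Dpf2 to Dpf1, with no exact permutation p under 0.2. Among 2 WT and 4 Capn15 KO females the regroupings are too few for an exact permutation p under 0.05, so that test could pass no difference. The WT brains of litter B were all male and its Capn15 KO brains all female. Among males or females alone, litter B thus held a single genotype. Genotype and litter B cannot be told apart in these single-sex differences.

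Level ratios moved by the construction of each length. With the longest, the median and the longest coding transcript (the last chosen after the data were seen), the means were 0.419, 0.196 and 0.215 for Actl6a to Actl6b, 0.288, 0.545 and 0.288 for Ss18 to Ss18l1, 0.545, 1.76 and 0.928 for Phf10 to Dpf1, 0.321, 0.322 and 0.233 for Dpf2 to Dpf1, 1.61, 1.35 and 1.61 for Dpf2 to Dpf3, and 1.64, 0.261 and 1.64 for Smarca4 to Smarca2. Phf10 to Dpf3 was at 7.41 with the median and 6.44 with the longest coding transcript. The summed ratio was 0.490, 0.705 and 0.518 with these lengths, all run after the data were seen. The correlations of Actl6a to Actl6b were -0.28 (neuron markers) and -0.59 (dividing progenitors) for deviations from genotype and litter means, and -0.24 and 0.21 without litter B, a setting chosen after the data were seen.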

Other observations

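Markers of radial glia and intermediate progenitors, such as Sox2 and Pax6, summed to between 1009 and 1125 CPM in the WT and between 1025 and 1144 CPM in the Capn15 KO brains. Those of the oligodendrocyte lineage summed to between 255 and 349.5 CPM and between 268 and 332 CPM, and those of astrocytes to between 672 and 1066 CPM and between 764 and 1033 CPM. None of the 48 markers in 9 lists was called between Capn15 KO and WT brains by edgeR's quasi-likelihood test, beside 0.00558% of all genes. Between litters, 4 of 4 astrocyte, 5 of 5 oligodendrocyte lineage, 3 of 3 red blood cell, 6 of 7 radial glia and intermediate progenitor, 6 of 8 dividing progenitor, 7 of 10 neuron, 2 of 3 endothelium, 2 of 4 microglia and 1 of 4 leptomeninges markers were called, beside 29.6% of all genes and 40.9% of genes at or above the level of the lowest BAF member. Red blood cell markers had the widest range for their level, from 25.2 to 266 CPM in the WT brains.

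Among 34 sets of values (each member, ratio and genotype) tested for a single brain far from the others of its group, 0 met the criterion, where chance alone gives about 1.7.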
